A study of Mus musculus with 18 samples.

Results

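The 26S proteasome breaks down proteins that carry ubiquitin chains. Its 20S core is a barrel of alpha rings, which gate the entry, around beta rings, which hold the cutting sites, and a 19S cap on its end binds, unfolds and feeds in the substrate. The genes of its subunits are known to be transcribed together, in mammals through the factor NRF1 (gene Nfe2l1), which accumulates when proteasomes are short and binds antioxidant response elements. In lymphocytes and after interferon, 3 of the cutting subunits can be replaced by inducible ones, encoded by Psmb8, Psmb9 and Psmb10, in what is called the immunoproteasome.

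All genes whose symbol starts with Psma, Psmb, Psmc or Psmd followed by a number were taken from both deposited tables, without Psmb8 and Psmb9. This gave 38 of 24391 genes. By role, 8 are alpha subunits of the 20S core (Psma genes), 9 are beta subunits (Psmb genes), 6 are ATPases of the 19S cap (Psmc genes) and 11 are non-ATPase subunits of the cap (Psmd genes). Psmd5, Psmd9 and Psmd10 encode chaperones that help to assemble the ATPase ring and leave the finished particle. Psmc3ip was caught by its symbol only: it encodes HOP2, a factor of meiotic recombination, and is no proteasome subunit. Of these, 36 passed the filter on low values in both tables, and 2 did not.

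The cells were E2-10HA, a mouse T cell hybridoma, and all libraries were stranded and made from total RNA after ribosomal RNA was removed. In the knockdown experiment the cells carried 1 hairpin (shRNA_1 in pLKO.1, with puromycin selection) against L3MBTL3, a partner of RBPJ with MBT domains, or a scramble hairpin (3 libraries each). In the rescue experiment all cells had been depleted of RBPJ, the DNA-binding factor of Notch signalling. They were then infected with a pMY-Bio IRES Blasticidin vector and selected with blasticidin. The vector carried Flag-tagged mouse RBPJ with the substitutions F261A/A284V, Flag-tagged mouse RBPJ WT, or no insert (empty vector), with 4 libraries per group. The labels do not say whether lines were clones or whether replicates came from separate cultures, so p-values measure spread among these samples only and that spread may be technical.

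Values are counts normalized by the authors, and the reads behind them were recovered from the smallest steps. Knockdown libraries held 4882485 to 6129134 recovered reads. Rescue libraries held 3553505 to 4239479 in replicates 3 and 4 and 5923799 to 7921533 in replicates 1 and 2. All 10 of 10 T cell markers passed the filter in both tables, including Cd3e and Lck. Of 4 markers each for B cells, stroma and myeloid cells none passed in the knockdown, and Lyz2 alone passed in the rescue, at a mean of 22.0. The library labelled scramble replicate 3 stood apart from the other 5 of the knockdown. L3mbtl3 itself was listed at 394, 371 and 370 in the libraries labelled L3MBTL3 shRNA, against 467, 447 and 352 in those labelled scramble, so the groups overlapped through that library. Rbpj lay between 685 and 922 in F261A/A284V libraries and between 627 and 818 in RBPJ WT libraries, against 255 to 317 in empty vector libraries, and the empty vector libraries did not overlap the others. In the rescue, replicates 3 and 4 differed from replicates 1 and 2 in all groups. Within a group, 3 pairs of libraries were near-identical: F261A/A284V replicates 3 and 4 agreed within the sampling noise of their reads, as did replicates 1 and 2 both of RBPJ WT and of the empty vector. Each such pair was counted as 1 sample where a mean is given. Empty vector replicates 3 and 4 narrowly missed the cut used for this and were counted separately.

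The window from 250 bases before to 50 after the start of transcription was found for 31 of the 38 genes in RefSeq's annotation of the build GRCm38.p6, which is not the authors' mm9. The letters searched, on both strands, were TGACNNNGC (the antioxidant response element bound by NRF1), GTGGGAA (RBPJ), CCAAT (NF-Y) and CCGGAAG (the ETS family). The promoters of Psmb5 and Psmb6, which encode catalytic subunits of the core, are shown because they hold the antioxidant response element. Psmd2, which encodes the cap's scaffold RPN1, is shown for the ETS letters, and Psma1 because it alone of the 31 holds the RBPJ letters. Capitals mark the matches, and each sequence runs from 5′ to 3′ on the gene's strand.
Psmb5: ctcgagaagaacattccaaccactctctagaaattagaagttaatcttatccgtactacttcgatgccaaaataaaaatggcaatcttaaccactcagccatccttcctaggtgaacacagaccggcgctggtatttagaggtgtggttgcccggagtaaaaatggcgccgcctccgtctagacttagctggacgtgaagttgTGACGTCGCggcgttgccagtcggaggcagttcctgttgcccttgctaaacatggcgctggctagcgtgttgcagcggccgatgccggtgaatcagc
Psmb6: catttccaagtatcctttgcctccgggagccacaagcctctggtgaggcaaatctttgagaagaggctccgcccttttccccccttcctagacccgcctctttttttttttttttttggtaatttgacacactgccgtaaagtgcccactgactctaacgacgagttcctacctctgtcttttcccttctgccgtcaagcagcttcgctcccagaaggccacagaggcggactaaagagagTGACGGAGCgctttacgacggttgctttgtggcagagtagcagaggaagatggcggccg
Psmd2: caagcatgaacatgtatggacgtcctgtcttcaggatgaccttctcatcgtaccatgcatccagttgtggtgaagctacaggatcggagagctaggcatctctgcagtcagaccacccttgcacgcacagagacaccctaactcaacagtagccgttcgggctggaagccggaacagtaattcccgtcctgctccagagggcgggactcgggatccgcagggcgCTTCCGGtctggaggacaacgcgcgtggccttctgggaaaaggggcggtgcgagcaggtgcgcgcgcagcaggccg
Psma1: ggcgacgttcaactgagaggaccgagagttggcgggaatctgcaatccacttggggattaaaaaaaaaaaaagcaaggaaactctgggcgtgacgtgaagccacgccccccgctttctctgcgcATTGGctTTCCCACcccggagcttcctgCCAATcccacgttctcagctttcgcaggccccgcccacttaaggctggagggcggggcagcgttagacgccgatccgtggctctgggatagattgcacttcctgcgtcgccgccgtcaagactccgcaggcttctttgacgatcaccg
The window of Psmb5 is chr14:54617946-54618245 on the minus strand, and that of Psmb6 is chr11:70525107-70525406 on the plus strand. Psmd2 has its window at chr16:20651402-20651701 on the plus strand and Psma1 at chr7:114276067-114276366 on the minus strand. Psma1 also holds CCAAT letters on either side of the RBPJ letters, and its capitals mark all of these.

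The antioxidant response element stood in 5 of the 31 windows (16.1%), those of Psmb5, Psmb6, Psmc6, Psmd12 and Psmd9, against 12.5% of all 27025 promoter windows. The RBPJ letters stood in 3.2% of the members' windows, against 6.4% of all. CCAAT was found in 41.9%, against 37.9% of all. The ETS letters stood in 32.3%, against 9.1% of all windows. These were the windows of Psmc1, Psmc2 and Psmc6 among the ATPases, of Psmd2, Psmd4, Psmd6, Psmd11, Psmd12 and Psmd13 among the non-ATPases, and of Psmc3ip. No alpha or beta subunit gene among the matched members had the ETS letters. Base composition was not matched, and a match describes letters only.

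The proteasome genes were well expressed in these T cells, and the subunits of a ring or cap were not made at equal transcript levels. Per kb of transcript, the 36 genes had a median normalized count of 354 in empty vector cells, where the median of all tested genes was 124. In scramble cells the members' median was 332 per kb, against 136 for all genes. In empty vector cells 33 of the 36 lay above the median of all genes and 17 above its 90th percentile, and in scramble cells 32 and 12 did. The summed subunits of core and cap, 32 genes that passed, took between 0.289% and 0.315% of all recovered reads in the knockdown libraries. In empty vector libraries they took 0.375% and 0.386% in replicates 3 and 4, against 0.286% and 0.291% in replicates 1 and 2. Empty vector means count replicates 1 and 2 as 1 sample and replicates 3 and 4 separately. Those means therefore lean towards the higher side, and their SDs take in this difference.

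Psma7, which encodes alpha4, had the highest level per kb in both control groups, at 752 ± 210.0 in empty vector cells and 648 ± 65.3 in scramble cells (SD, n = 3 each). It was followed in scramble cells by Psmd4 (the ubiquitin receptor RPN10) at 551 ± 61.5 and Psmd8 (RPN12) at 548 ± 76.7 per kb, and the spreads of the 3 genes overlapped. In empty vector cells Psmb6 (beta1, which cuts after acidic residues) came next at 544 ± 126 per kb and Psmd4 at 541 ± 126. At the low end stood Psmd9 with 74.7 ± 9.41 per kb in empty vector cells and 86.8 ± 5.82 in scramble cells, and Psma3 (alpha7) with 80.8 ± 12.6 and 94.9 ± 2.79. The annotated transcript of Psma3 measures 2.85 kb and holds 0.76 kb of coding sequence, and per kb of coding sequence its level was 300.0 ± 47.0 in empty vector cells and 353 ± 10.4 in scramble cells. By coding length Psma7 stayed highest in empty vector cells, at 924 ± 258, but Psmb1 came next at 812 ± 235. Psmd4 was then at 638 ± 148, Psmb6 at 608 ± 140 and Psmd9 at 291 ± 36.7. In scramble cells Psma7 and Psmd8 were level by coding length, at 797 ± 80.2 and 797 ± 112. The order below Psma7 thus depends on the length used. The isoform used in these cells was not determined, so the order per kb carries that limit.

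Among the constitutive catalytic subunits, Psmb6 stood highest per kb, followed by Psmb7 (beta2, the trypsin-like site) at 405 ± 98.9 in empty vector cells and 372 ± 39.6 in scramble cells. Psmb5 (beta5, the chymotrypsin-like site that proteasome drugs block) had 293 ± 48.1 per kb in empty vector cells and 274 ± 16.2 in scramble cells. The inducible Psmb10 (beta2i) had 280.0 ± 34.6 and 177 ± 27.6 per kb in the same groups. The last 2 values come from tables that the authors normalized separately and were not tested against each other. Psma8, the alpha subunit of testis, and Psmb11 (beta5t), known from cortical thymic epithelium, failed the filter: Psma8 was at or below 1.27 in every library of both tables, and Psmb11 at or below 4.81. Psmc3ip, the gene that is no subunit, had 136 ± 10.8 per kb in empty vector cells and 109 ± 16.6 in scramble cells.

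**Figure D1:**
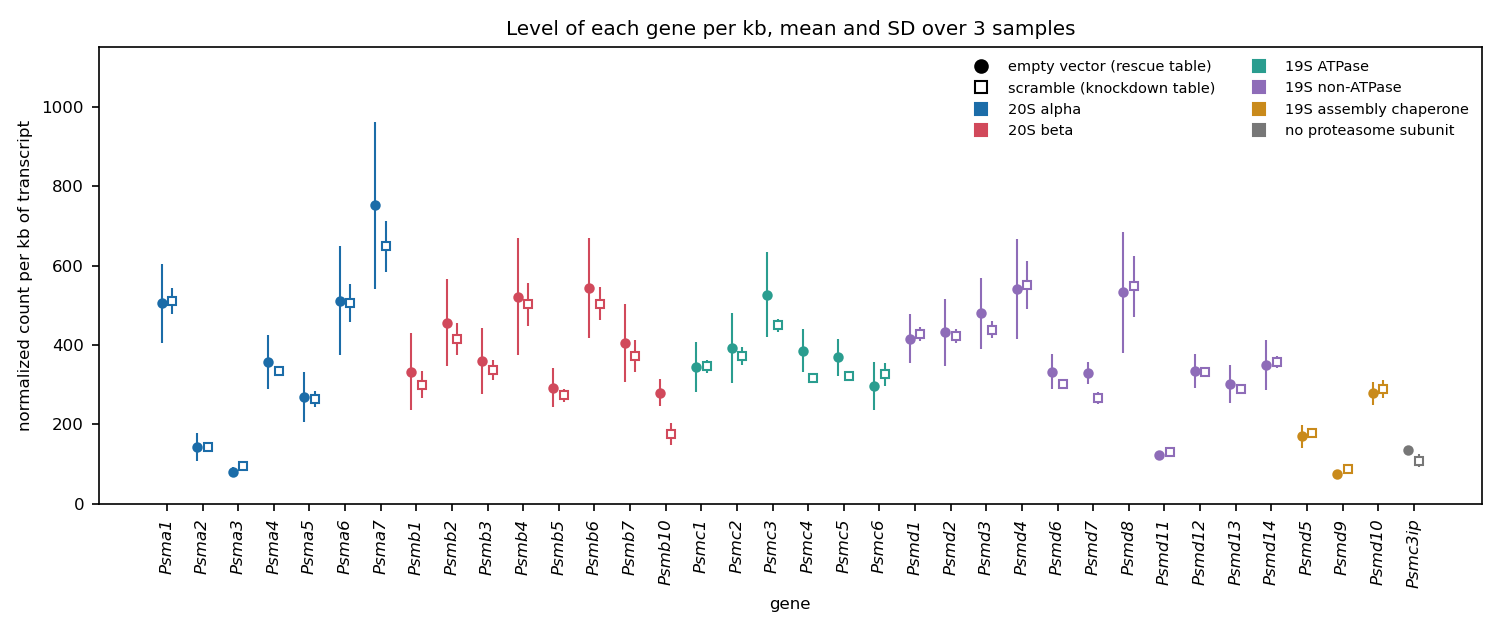
Normalized count per kb of transcript (y axis, linear) for each of the 36 genes (x axis), as mean and SD over 3 samples, in empty vector cells (filled circles) and scramble cells (open squares), coloured by role. Psma7 is highest, and Psma3 and Psmd9 lie lowest.

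With the L3MBTL3 hairpin, proteasome genes tended to lie below scramble cells by small amounts, and none passed the test with group as the only term. Of the 36 genes, 0 were called, where 3.32% of all tested genes were (1.11% lower and 2.21% higher). The log2 fold change was below 0 in 30 of the 36, against 51.3% of all genes, and the median was -0.11, against -0.01 for all genes. Genes of the same libraries can shift together, so such counts of genes, here and in the rescue, are not independent observations. At an unadjusted p under 0.05, limma gave 8 of the 36, where it gave 2949 of all 11586 genes, so that count does not set the members apart. With the same term and adjusted p-values, edgeR and DESeq2 also called 0 of the 36, where they called 472 and 655 of all genes. In such bulk RNA, fewer expressing cells and less RNA per cell cannot be told apart. In 16 genes every L3MBTL3 shRNA library lay below every scramble library (17.1% of all genes) and in 0 every one lay above (18.1% of all genes).

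With the replicate number as a block, 5 of the 36 genes fell, where 8.71% of all genes fell in that fit. Psmb5 had 195, 210 and 202 normalized counts in L3MBTL3 shRNA cells, against 233, 243 and 262 in scramble cells. These groups did not overlap, and the log2 fold change was -0.28 ± 0.09 (SE), with an adjusted p of 0.0452 in the blocked fit and 0.0966 without the block. Psmd5, the assembly chaperone S5b, was listed at 645, 680 and 718 in L3MBTL3 shRNA cells, against 769, 776 and 816 in scramble cells. It had the lowest adjusted p of the genes, 0.0168 with the block and 0.0798 without it, at a log2 fold change of -0.21 ± 0.05 (SE of the blocked fit). Psmd14 encodes RPN11, the enzyme that cuts ubiquitin chains off the substrate. Its values were 466, 499 and 489 in L3MBTL3 shRNA cells, against 534, 540 and 576 in scramble cells, a log2 fold change of -0.18 (adjusted p = 0.0489 with the block, 0.111 without).

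The other 2 genes called with the block leaned on scramble replicate 3. Psmd8 had 707, 726 and 744 in L3MBTL3 shRNA cells, against 765, 788 and 980 in scramble cells (log2 fold change -0.21, adjusted p = 0.0378 with the block and 0.2 without). Psmc6, an ATPase of the cap (RPT4), had 637, 641 and 626 in L3MBTL3 shRNA cells, against 691, 695 and 803 in scramble cells (log2 fold change -0.20, adjusted p = 0.043 with the block and 0.127 without). In the blocked fit without replicate 3 of both groups, neither passed (adjusted p = 0.0758 for Psmd8 and 0.0863 for Psmc6), and the median over the 36 genes was -0.05. That fit, chosen after the data were seen, called 4 of the 36 genes lower, where 12.6% of all genes were: Psmb5 (log2 fold change -0.23, adjusted p = 0.0462), Psmd5 (-0.22, 0.000323), Psmd14 (-0.16, 0.0363) and Psmc3ip (-0.53, 0.000626).

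By role, all 7 alpha subunits that passed had a log2 fold change below 0 (median -0.13) and so had 7 of 8 beta subunits (median -0.12). Of the cap, 4 of 6 ATPases (median -0.02) and 9 of 11 non-ATPases (median -0.05) did. The summed core over the summed cap was 0.512, 0.514 and 0.523 in L3MBTL3 shRNA libraries, against 0.523, 0.521 and 0.551 in scramble libraries. Scramble replicate 3 held the highest value of the 6 libraries in 7 of 7 alpha and 7 of 8 beta subunits, and in 28 of the 36 genes altogether, where it did so in 35.8% of all genes. It lay above the mean of the other scramble libraries by a median of 0.12 (log2) over the 36 genes and of 0.00 over all genes, and it was the library with the fewest reads of the knockdown. Over all genes that shift was 0.15 for transcripts under 1 kb and -0.02 for those of 4 kb or more, and the part of depth or transcript length in the result was not tested.

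The remaining catalytic subunits did not pass with or without the block. Psmb6 had 349, 347 and 360 in L3MBTL3 shRNA cells, against 377, 390 and 440 in scramble cells (log2 fold change -0.19, adjusted p = 0.0744 with the block). Psmb7 had 394, 405 and 391 in L3MBTL3 shRNA cells, against 395, 417 and 483 in scramble cells, and the groups overlapped through scramble replicate 1. Psmb10 had 260, 226 and 246 in L3MBTL3 shRNA cells, against 261.1, 244.3 and 191.7 in scramble cells, with its lowest value in scramble replicate 3. Its log2 fold change was 0.08 ± 0.13 (SE), the highest of the 36, though it was -0.06 in the blocked fit without replicate 3 of both groups and -0.05 to 0.17 with libraries left out in turn. It was followed by 0.06 for Psmd7 (RPN8) and 0.02 for Psmd10 (gankyrin). Psmc3ip had 103, 104 and 129 in L3MBTL3 shRNA cells, against 137, 164 and 122 in scramble cells, and these groups overlapped (log2 fold change -0.33 ± 0.15, adjusted p = 0.221, and 0.136 with the block).

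**Figure D2:**
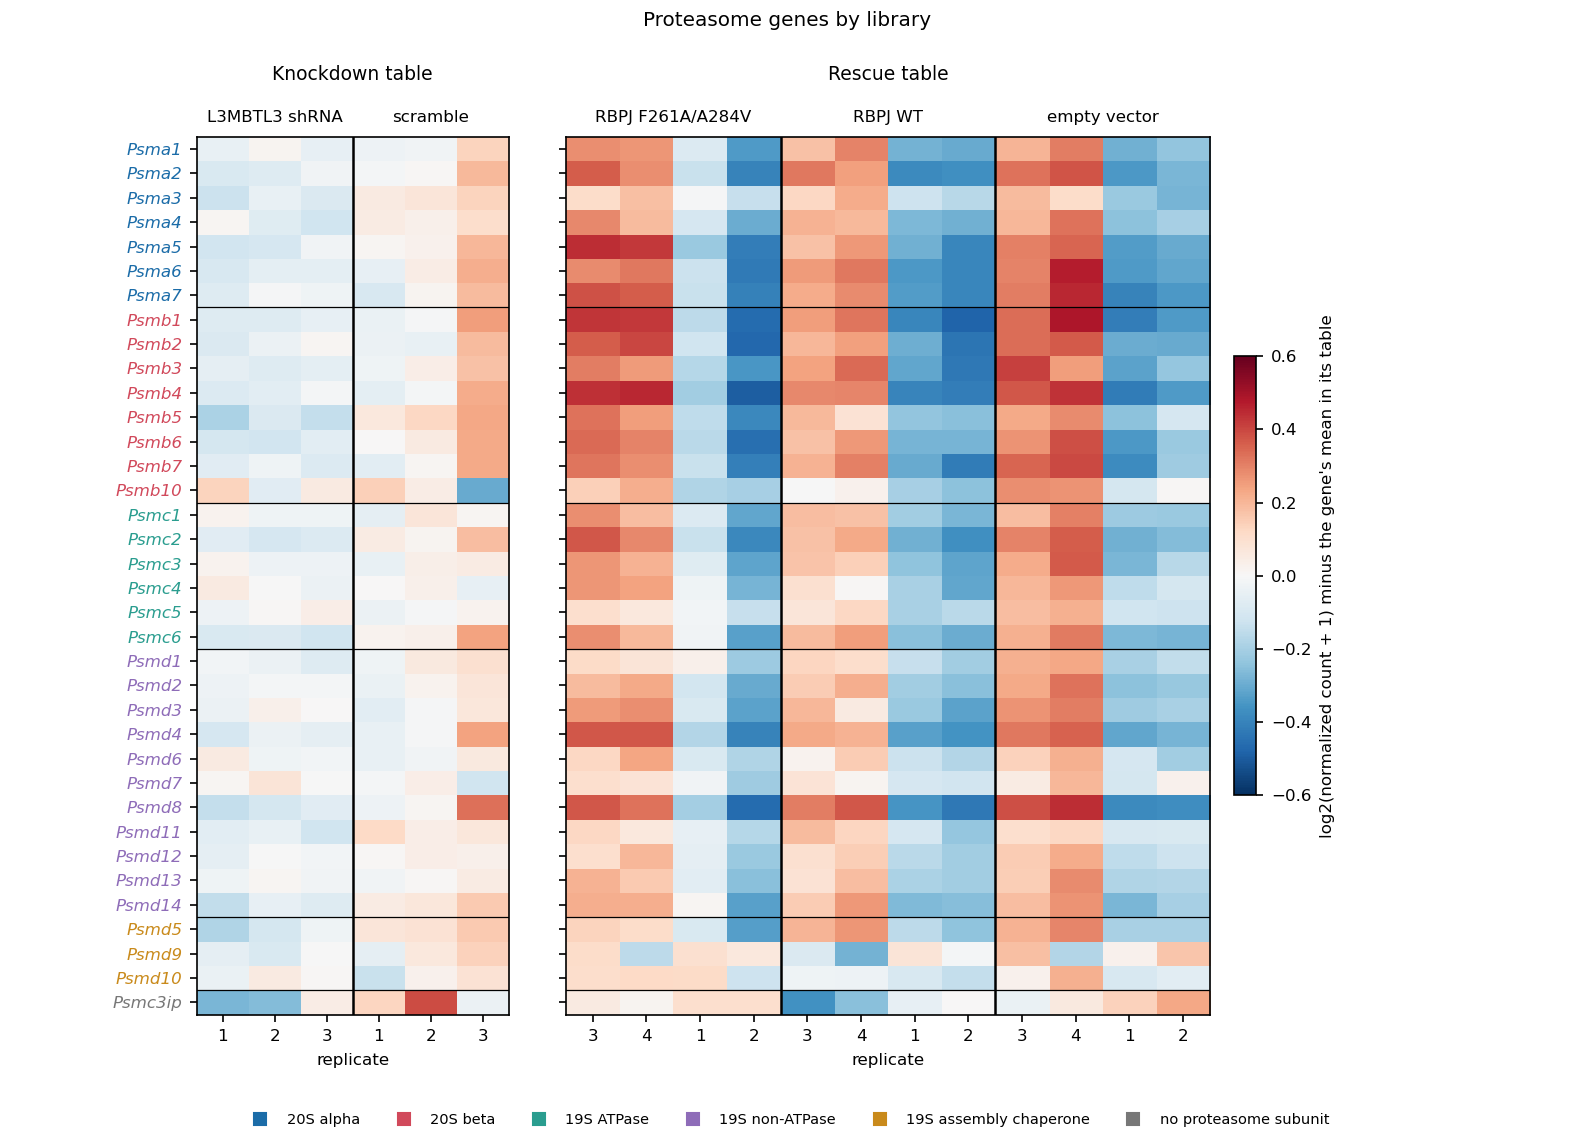
Each gene's log2(normalized count + 1) minus its mean in that table (colour), by gene (rows, ordered by role) and library (columns, by group and replicate). In the knockdown, scramble replicate 3 is raised over most of the core. In the rescue, replicates 3 and 4 lie above replicates 1 and 2 in every group for nearly all subunits, while Psmd9 and Psmc3ip do not follow.

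No proteasome gene passed the test with group as the only term when RBPJ was put back, and the fold changes were small. In RBPJ WT cells against empty vector cells, 0 of 36 genes were called, where 0.248% of all genes were. Limma gave 1 of the 36 an unadjusted p under 0.05, where it gave 398 of all 11691 genes. With group as the only term, edgeR and DESeq2 called 0 of the 36. They called 28 and 60 of all genes, so few that 0 of 36 says little. The log2 fold change was below 0 in 35 of the 36, against 53.5% of all genes, and the median was -0.07, against -0.01 for all genes. It was -0.10 within replicates 3 and 4 and -0.05 within replicates 1 and 2. These genes share their libraries and shift together between them, so they are not 36 independent observations. No gene's groups were free of overlap (background 1.46% higher and 1.87% lower). The 95% intervals of the 36 log2 fold changes lay within -0.69 and 0.54 with group as the only term. With the replicate block, which counts the near-identical libraries separately, they lay within -0.42 (Psmc3ip) and 0.20 (Psma3), and with those libraries merged and a term for the divide within -0.47 and 0.22.

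Psmb10, the inducible beta2i subunit, was the 1 gene that passed with the replicate block, where 1.24% of all genes were called lower. In replicates 3 and 4 it had 325 and 330 in RBPJ WT cells, against 394 and 391 in empty vector cells. In replicates 1 and 2 it had 283 and 274 in RBPJ WT cells, against 302 and 326 in empty vector cells. The RBPJ WT values were thus below those of the empty vector on each side of the divide, and overlapped only across it. The log2 fold change was -0.22 ± 0.05 (SE of the blocked fit), with an adjusted p of 0.0351 with the block and 1.0 without it, and edgeR with a block gave 0.0225. With the near-identical libraries counted once and a term for the divide, the adjusted p was 0.0892, so the call was lost when they were counted once.

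Other changes in RBPJ WT cells did not pass any of these fits. Psmc4 (the ATPase RPT3) had 446, 412, 546 and 513 in RBPJ WT replicates 1 to 4, against 460, 474, 586 and 613 in those of the empty vector (log2 fold change -0.15, adjusted p = 0.156 with the block). Psmb5 had 204, 202, 275 and 256 in RBPJ WT cells, against 203, 224, 282 and 293 in empty vector cells. The log2 fold changes of Psmb5, Psmb6 and Psmb7 were -0.09, -0.05 and -0.09, each within 1 SE of the fit without a block, whose SE takes in the divide. With the block the SEs were 0.07, 0.06 and 0.06, so Psmb5 and Psmb7 lay beyond 1 SE (adjusted p = 0.595, 0.738 and 0.537). Psma3, at 0.07, was the 1 gene above 0. Psmc3ip had 162, 168, 130 and 141 in RBPJ WT cells, against 184, 197, 163 and 174 in empty vector cells, a log2 fold change of -0.26 ± 0.10 (SE, limma, unadjusted p = 0.0213, adjusted p = 1.0, and 0.0829 with the block).

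In F261A/A284V cells against the same empty vector libraries, 0 of 36 genes were called with or without the block (background 0.0171% and 0.65%). Limma gave 0 of the 36 an unadjusted p under 0.05, where it gave 240 of all 11691 genes. Both edgeR and DESeq2 also called 0 of the 36, where they called 2 and 7 of all genes. The log2 fold change was below 0 in 19 and above 0 in 17 of the 36 genes, with a median of -0.01, against 0.01 for all genes. This split takes in F261A/A284V replicate 1, which was raised. Core and cap subunits summed to 15992 there and 13636 in replicate 2, against 14286 and 14710 in empty vector replicates 1 and 2. In replicates 3 and 4 the sums were 20515 and 20274, against 20250 and 21348 in the empty vector. The 95% intervals lay within -0.60 and 0.64 for all 36 with group as the only term, within -0.23 and 0.22 with the block, and within -0.27 and 0.26 with near-identical libraries merged and a term for the divide. Psmb10 was lowest, at -0.12: it had 287, 283, 359 and 378 in F261A/A284V cells, against 302, 326, 394 and 391 in empty vector cells (adjusted p = 0.408 with the block). Psmd5 and Psmd7 came next at -0.07 and -0.05, and at the upper end stood Psma3 at 0.09 and Psma5 (alpha5) and Psma7 at 0.05 each. None of these passed.

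Set directly against RBPJ WT cells, F261A/A284V cells gave 0 called genes of 36 (background 0.316%, and 4.74% with the block, where 0 of 36 were called as well). At an unadjusted p under 0.05 limma gave 1, where it gave 540 of all 11691 genes. By adjusted p edgeR and DESeq2 called 0 of the 36, where they called 29 and 78 of all genes. These libraries are shared with the comparisons above. The log2 fold change was above 0 in 34 of 36, against 55.0% of all genes, with a median of 0.06, against 0.01. The highest was Psmc3ip at 0.23 ± 0.10 (SE, limma, unadjusted p = 0.0369, adjusted p = 0.991, and 0.0861 with the block). It had 180.0, 179, 174 and 169 in F261A/A284V cells, against 162, 168, 130 and 141 in RBPJ WT cells, and was the 1 gene whose groups did not overlap (background 1.94%). Psmc4 followed at 0.15, with 501, 421, 614 and 604 in F261A/A284V cells, against 446, 412, 546 and 513 in RBPJ WT cells (adjusted p = 0.1 with the block), and Psmb1 (beta6) at 0.13. At the lower end Psmd5 was at -0.06. F261A/A284V replicate 1 lay above the other libraries of replicates 1 and 2, with 0.303% of its reads in core and cap subunits, against 0.271% to 0.291%. In the blocked fit without it the median was 0.01.

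**Figure D3:**
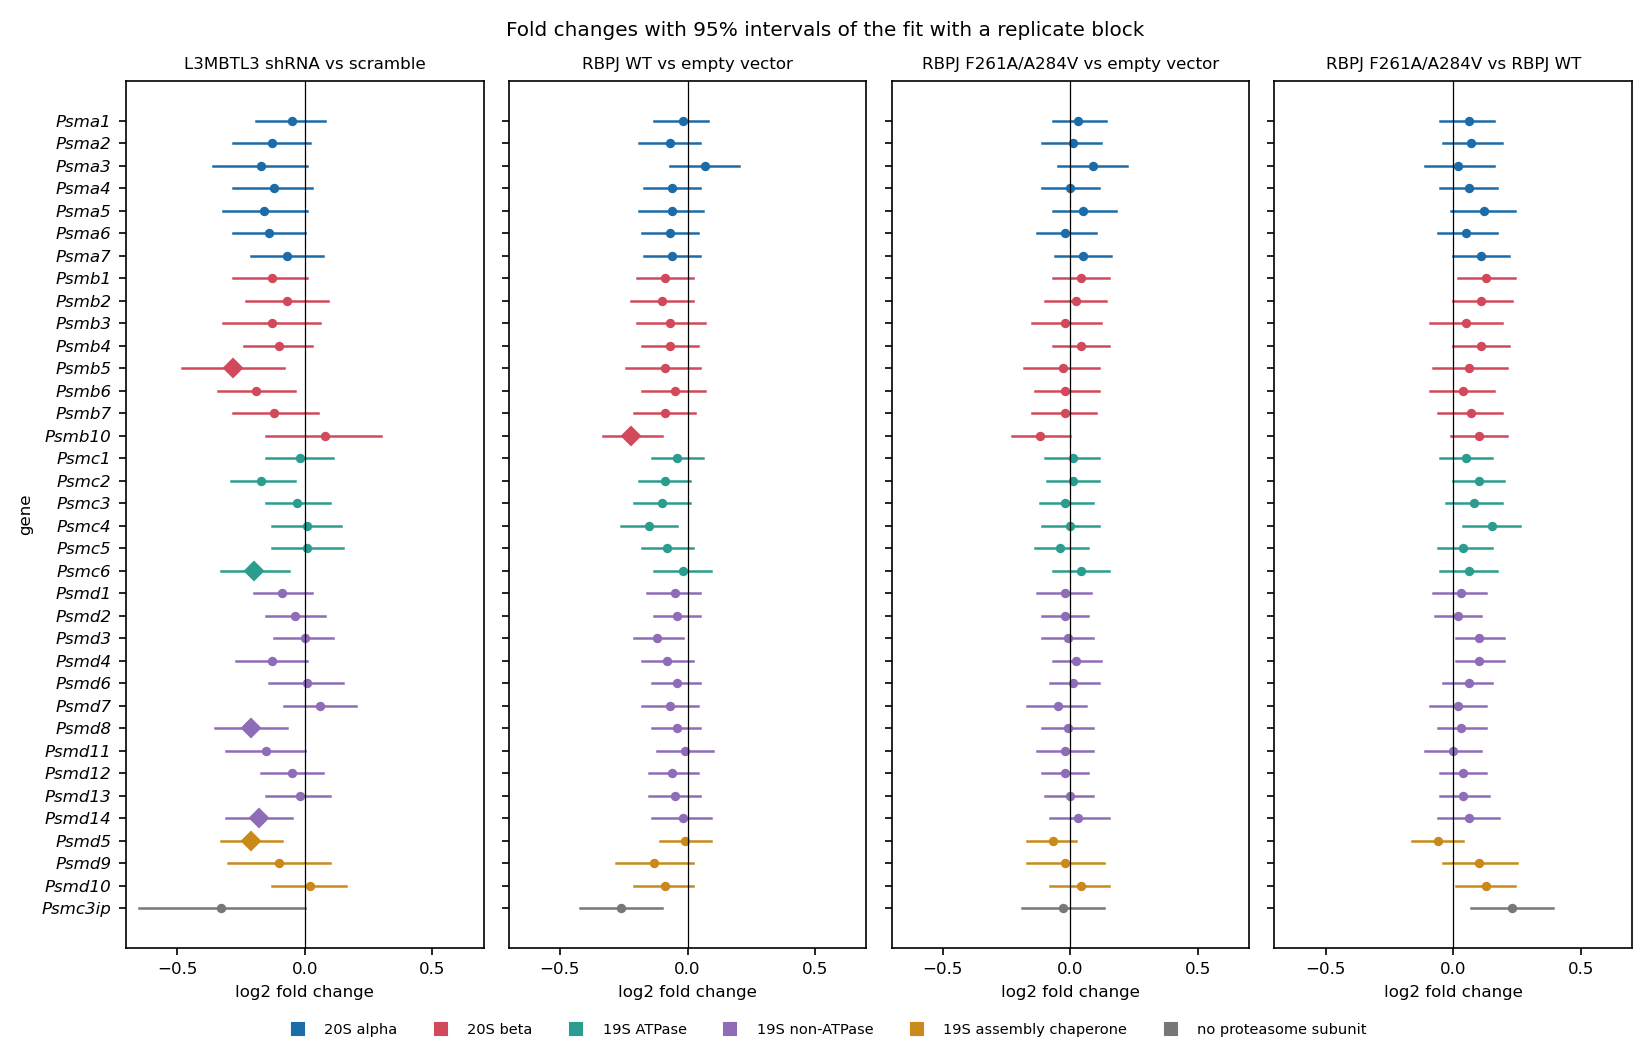
Log2 fold change (x axis) of each of the 36 genes (y axis) in the 4 comparisons, with the 95% interval of the fit with a replicate block as a line and a diamond where that fit's adjusted p was under 0.05. Diamonds stand at Psmb5, Psmc6, Psmd8, Psmd14 and Psmd5 for the L3MBTL3 hairpin and at Psmb10 for RBPJ WT, and no other gene passed.

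The widest variation of the proteasome genes in the series ran between replicates of the same group. In the rescue, core and cap subunits took 0.356% to 0.386% of the recovered reads in replicates 3 and 4, against 0.271% to 0.303% in replicates 1 and 2, with no overlap. The labels do not say what sets these replicates apart. Since the divide was found in these data, its values are given with no test. In 31 of the 36 genes all 6 libraries of replicates 3 and 4 lay above all 6 of replicates 1 and 2 (26.2% of all genes), and in 0 all lay below (21.3% of all genes). The median log2 difference was 0.46, against -0.02 over all genes. It was 0.43 within F261A/A284V cells, 0.44 within RBPJ WT cells and 0.49 within empty vector cells.

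The core moved more than the cap, and the assembly chaperones least. The median log2 difference was 0.63 over 7 alpha subunits and 0.61 over 8 beta subunits. Over 6 ATPases it was 0.45 and over 11 non-ATPases 0.36. The summed core over the summed cap was 0.556 to 0.579 in replicates 3 and 4, against 0.497 to 0.511 in replicates 1 and 2, again with no overlap. Psmb4 (beta7) differed most: it ranged from 662 to 744 with a median of 718 in replicates 3 and 4, against 384 to 470 with a median of 409 in replicates 1 and 2, a log2 difference of 0.76. Psmb1 had 609 to 715 (median 666) in replicates 3 and 4, against 366 to 458 (median 387) in replicates 1 and 2, a log2 difference of 0.75. Psmd8, the highest of the cap at 0.73, had 885 to 974 (median 927) in replicates 3 and 4, against 520 to 622 (median 551) in replicates 1 and 2. The sets of libraries did not overlap in these 3 genes.

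Psmb6 and Psmb7 differed by 0.58 and 0.62 and Psmb5 by 0.46, the smallest of the 3 constitutive cutting subunits. Psmb5 ranged from 256 to 302 (median 284.3) in replicates 3 and 4, against 184 to 224 (median 203) in replicates 1 and 2. Psmb10 overlapped: it ranged from 325 to 394 in replicates 3 and 4, against 274 to 326 in replicates 1 and 2, a log2 difference of 0.31. The other 4 whose libraries overlapped were Psmd7 at 0.18, Psmd10 at 0.13, Psmd9 at -0.14 and Psmc3ip at -0.18. Psmd9 had 155 to 214 in replicates 3 and 4, against 187 to 211 in replicates 1 and 2. So of the 3 chaperones only Psmd5, at 0.40, was free of overlap, and the gene that is no subunit lay on the other side of 0.

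**Figure D4:**
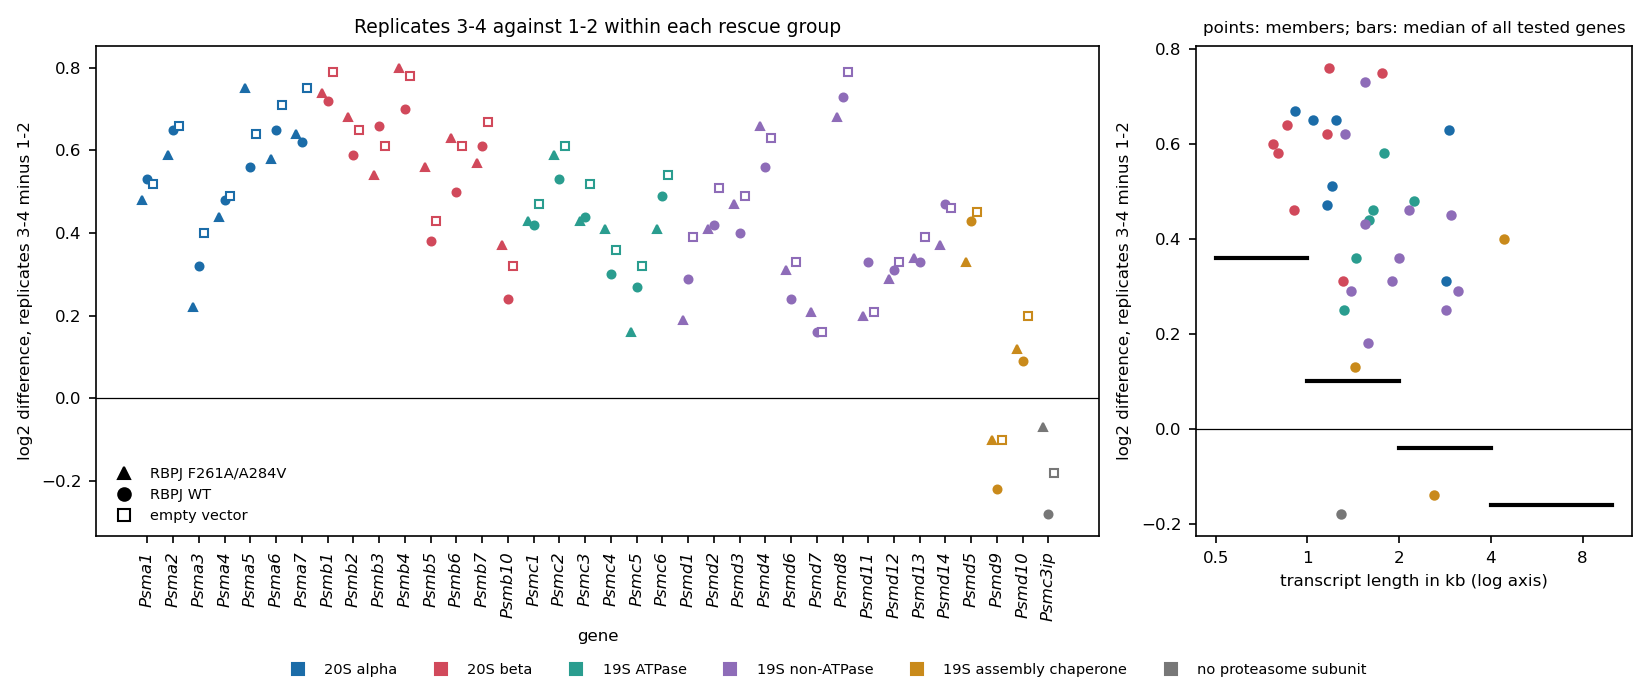
Left, log2 difference between replicates 3-4 and 1-2 (y axis) for each gene (x axis), within F261A/A284V cells (triangles), RBPJ WT cells (circles) and empty vector cells (open squares). Right, the difference over all groups (y axis) against transcript length in kb (log axis), with bars at the median of all tested genes per length class. The alpha and beta subunits mostly lie between 0.46 and 0.76, and Psmd9 and Psmc3ip lie below 0.

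Transcript length and depth ran along the same divide. Over all tested genes the median log2 difference was 0.36 under 1 kb, 0.10 from 1 to 2 kb, -0.04 from 2 to 4 kb and -0.16 at 4 kb or more. The proteasome genes in these classes had medians of 0.60 (5 genes), 0.45 (22 genes), 0.38 (8 genes) and 0.40 (1 gene). The 5 genes under 1 kb, Psma7, Psmb2, Psmb3, Psmb5 and Psmb6, all belong to the core. Role and length thus partly coincide, and the contrast of core and cap was not separated from length. Across genes the correlation of the difference with log2 length was -0.32 over the 36 genes and -0.30 over 11594 genes, which share the libraries and their depth. Replicates 3 and 4 also had fewer reads. The part of length, depth or cell state in the divide was not tested.

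**Figure D5:**
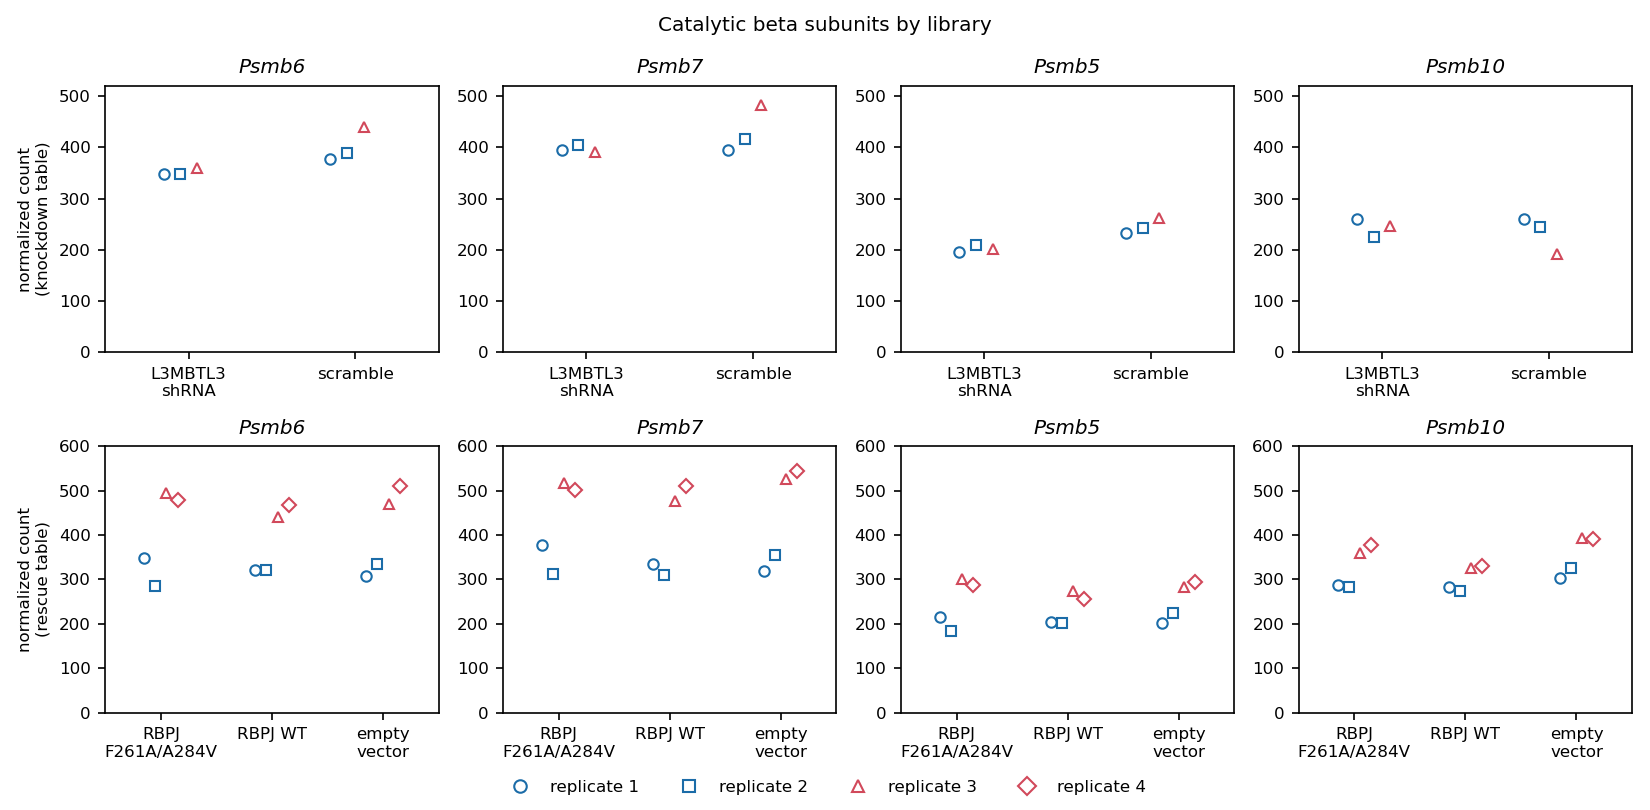
Normalized counts (y axes from 0) of the constitutive cutting subunits Psmb6, Psmb7 and Psmb5 and the inducible Psmb10 in each library, with the knockdown above and the rescue below, and symbols by replicate. Within every rescue group replicates 3 and 4 lie above replicates 1 and 2, and in the knockdown scramble replicate 3 is highest for Psmb6, Psmb7 and Psmb5 and lowest for Psmb10.

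Genes that work with the proteasome were read beside it, 35 of which passed the filter. In each of the 4 comparisons 0 of 35 were called with group as the only term. With the block, Nfe2l1, which encodes NRF1, was the 1 gene of 35 called, in the knockdown, where 8.71% of all genes were called lower: it had 2041, 2229 and 2273 in L3MBTL3 shRNA cells, against 2414, 2394 and 2906 in scramble cells, a log2 fold change of -0.23 (adjusted p = 0.0172 with the block and 0.15 without). Its highest value was in scramble replicate 3. Across the divide of the rescue, all libraries of replicates 3 and 4 lay above those of replicates 1 and 2 in 22 of the 35 genes and below them in 1 (26.2% and 21.3% of all genes), with a median log2 difference of 0.32, against -0.02 over all genes. All 5 ubiquitin and E1 genes were among the 22, with Ubb at 0.89. So were Psmb8 at 0.81 and Psmb9 at 0.65, the inducible cutting subunits left out above, Shfm1 (the cap subunit SEM1) at 0.72, the core assembly factor Pomp at 0.67 and Nfe2l1 at 0.57. Of the core assembly chaperones, Psmg1, Psmg2 and Psmg3 overlapped, at 0.18, 0.22 and 0.10. Ngly1, the enzyme that removes sugars from NRF1 and so takes part in its activation, was the 1 gene below, at -0.43.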

How the data were processed

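The authors deposited 1 table of normalized gene counts per experiment, here treated as a signal: each value is a read count divided by a size factor of its library, and 100% of the values came out as whole reads within a tolerance of 0.1 read. The submitters' processing notes name the build mm9, the aligner TopHat2 2.1.1 and DESeq2 1.24.0. How reads were counted, on which annotation and whether by strand, is not stated there, so reads shared with pseudogene copies or overlapping genes are uncertain. The tables were normalized separately, and tests stayed within a table.

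Genes at 10 or more in at least 3 (knockdown, 11586 genes) or 4 libraries (rescue, 11691 genes) were fitted on log2(value + 1) with the trended test of limma 3.58.1 under R 4.3.3 (2-sided); the only term was group, and 1 fit held all 12 rescue libraries. Adjusted p-values are Benjamini-Hochberg over all tested genes, called under 0.05, and come from limma where no tool is named. The log2(value + 1) scale understates changes of low genes. Same-numbered libraries of different groups correlated at 0.24 to 0.539 (knockdown) and 0.55 to 0.815 (rescue) in their deviations from group means. The numbers were therefore taken to pair the libraries, and a fit with a replicate block is given where it changes a call. In the knockdown the pairing is weakly borne out, since libraries of different number correlated at -0.469 to 0.332, which overlaps the same-number range. Over the 36 genes, replicate 3 lay above replicates 1 and 2 by a median log2 difference of 0.12 in scramble and 0.01 in L3MBTL3 shRNA libraries. In the rescue that pairing is largely the divide between replicates 1-2 and 3-4, since libraries of different number correlated at -0.761 to 0.832. Libraries whose reads differed by a chi-square per degree of freedom under 1 were averaged for means ± SD, which leaves 3 samples per rescue group with unequal shares of the divide. Rescue groups are therefore compared by library and by fit. Empty vector replicates 3 and 4, at 1.06, missed that cut by little, so they may be no more separate than the merged pairs.

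The alternatives were edgeR 4.0.16 and DESeq2 1.42.0 on recovered reads, other pseudocounts, filters and scalings, libraries left out, and fits within or adjusted for the divide. The limma fit was tested on simulated data with independent libraries. These held no divide, no shifted replicate and no near-identical pair, so the simulation cannot speak to calls that depend on those features. The members, the lists of other genes and markers, and the motifs were chosen with earlier results of these data known. The genes named are the members called in the fit with or without a block, the 3 highest and 3 lowest log2 fold changes per comparison, the catalytic subunits and the members below the filter. Transcript lengths came from GENCODE on GRCm38 and promoters from RefSeq on GRCm38.p6. Psmb8 and Psmb9 are excluded by the choice of members.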

Additional observations from a re-analysis of the deposited data

How the results depend on the processing

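The number of the 36 genes called was 0 higher and 0 lower in all 4 comparisons in the fit with group as the only term, and ranged from 0 to 0 when each library was left out in turn. Most of these knockdown fits say nothing on stability, since over all genes 0 were called without L3MBTL3 shRNA replicate 1 or 2 or scramble replicate 2, and 5 without L3MBTL3 shRNA replicate 3. The rescue fits say little either, with few calls among all 11753 to 11795 genes. They called 17 to 26 for RBPJ WT against empty vector, 2 to 3 for F261A/A284V against empty vector and 20 to 37 for F261A/A284V against RBPJ WT. The number of the 36 called moved only in fits that take up the replicates. For L3MBTL3 shRNA against scramble, 5 genes were lower with the replicate block (8.71% of all genes), 5 with edgeR and a replicate block (8.98% of all genes), and 4, Psmc3ip among them, in the block without replicate 3 of both groups (12.6% of all genes). For RBPJ WT against empty vector, 1 gene, Psmb10, was lower with the replicate block, with edgeR and a block, in the block without F261A/A284V replicate 1 and with a term for replicates 1-2 against 3-4 (1.24% to 1.48% of all genes). The block changed no other call. The fits with edgeR and a block, and those without replicate 3 or F261A/A284V replicate 1, were chosen after the data were seen.

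Without scramble replicate 3 the median log2 fold change of the 36 genes was -0.05, and without any other knockdown library it was -0.14 to -0.10. In the rescue, leaving out 1 library leaves unequal shares of the divide by construction. The median then ranged from -0.18 (empty vector replicate 1 left out) to 0.03 (empty vector replicate 4 or RBPJ WT replicate 2 left out) for RBPJ WT against empty vector. It ranged from -0.09 to 0.11 for F261A/A284V against empty vector and from -0.01 to 0.18 for F261A/A284V against RBPJ WT. Merging the near-identical libraries without a term for the divide has the same imbalance and gave -0.08, -0.17 and -0.09.

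With libraries left out in turn, fold changes that changed sign ranged as follows. For L3MBTL3 shRNA against scramble, Psmb10 ranged from -0.05 to 0.17 and Psmd10 from -0.05 to 0.06. For RBPJ WT against empty vector, the ranges were -0.01 to 0.15 for Psma3, -0.18 to 0.07 for Psmb6, -0.23 to 0.03 for Psmb7, -0.08 to 0.06 for Psmd11 and -0.09 to 0.08 for Psmd5. For F261A/A284V against empty vector, they were -0.07 to 0.21 for Psma5, -0.09 to 0.20 for Psma7, -0.14 to 0.10 for Psmb5, -0.14 to 0.14 for Psmb6, -0.16 to 0.12 for Psmb7, -0.15 to 0.02 for Psmd5 and -0.10 to 0.01 for Psmd7. For F261A/A284V against RBPJ WT, they were -0.0017 to 0.31 for Psmb1, -0.04 to 0.19 for Psmb5, -0.07 to 0.19 for Psmb6, -0.06 to 0.21 for Psmb7, -0.08 to 0.06 for Psmd11, -0.15 to 0.03 for Psmd5 and -0.02 to 0.08 for Psmd7.

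None of the fold changes that changed sign had passed a test. For L3MBTL3 shRNA, Psmb10 was at -0.0029 after quantile normalization and -0.06 in the block without replicate 3. For RBPJ WT against empty vector, Psmd11 was at 0.01 in both fits with merged libraries and 0.05 in replicates 3 and 4 alone, and Psmb6 at 0.00 in replicates 1 and 2 alone. For F261A/A284V against empty vector, the merged fit gave -0.02 for Psma3, -0.18 for Psma5 and -0.18 for Psma7. Psma7 was at -0.01 in the block without F261A/A284V replicate 1 and -0.01 in replicates 3 and 4 alone, where Psma3 was at -0.0036 and Psmb5 at 0.03, and Psmb7 was at 0.02 in replicates 1 and 2 alone. For F261A/A284V against RBPJ WT, the merged fit gave -0.11 for Psmb1, -0.10 for Psmb5, -0.15 for Psmb6, -0.13 for Psmb7 and -0.04 for Psmd7. Psmb6 and Psmd7 were at -0.01 and -0.02 in the block without F261A/A284V replicate 1. In replicates 1 and 2 alone Psmb5 and Psmb6 were at -0.03, Psmd7 at -0.01 and Psmd11 at 0.06, and edgeR with a block put Psmd11 at 0.01. The cause was not tested.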

Other observations

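The shift of scramble replicate 3 from the other scramble libraries and the shift of rescue replicates 3 and 4 from replicates 1 and 2 come from different libraries and were set beside each other gene by gene. Across the 36 genes the Pearson correlation of the 2 shifts was 0.69, and over all 11352 genes tested in both tables it was 0.45. For the shift of L3MBTL3 shRNA replicate 3 it was -0.21 over the 36 genes and 0.13 over all. The 36 include Psmc3ip, which is no subunit and lay apart. Its shift was -0.3 in scramble replicate 3 and -0.18 across the divide, against medians of 0.12 and 0.46 over the 36. Correlations without Psmc3ip were not computed. Genes within a table share its libraries, depth and transcript lengths, so no p is given. The labels do not say whether these libraries share a handling step. Both libraries or sets with raised proteasome genes had fewer recovered reads than their counterparts, and the part of depth was not tested.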
